A study of Mus musculus with 6 samples.

Results

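Lrg1 and 8 receptors of the transforming growth factor beta (TGF-beta) and bone morphogenetic protein (BMP) family were followed in RNA sequencing of mouse glomerular endothelial cells. The 9 genes were chosen by symbol for their known roles, with earlier results of these data known. They were Lrg1, the co-receptor genes Eng and Tgfbr3, the type I receptor genes Acvrl1, Tgfbr1 and Bmpr1a, the type II receptor genes Tgfbr2 and Bmpr2, and the decoy receptor gene Bambi. All 9 were found among the 12911 genes listed and all 9 passed the filter on low counts.

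The STZ group (3 libraries) came from eNOS-null mice treated with streptozotocin (STZ), a beta cell toxin used to induce diabetes, and the control group (3 libraries) from eNOS-null mice without treatment. Both groups thus lacked a wild-type form of the endothelial nitric oxide synthase gene, and there was no wild-type group. Glomerular cells were sorted for EYFP fluorescence, and RNA of 4 mice was pooled for each library. The sources used here give no age, STZ dose, time after STZ or driver of EYFP. The replicate is the pool and not the mouse, for every error and p-value, and within a pool fewer cells of a type and less RNA per cell cannot be told apart.

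TGF-beta family ligands bind a type II receptor, which phosphorylates a type I receptor, which in turn activates SMAD transcription factors. In endothelial cells the type I receptor ALK1, encoded by Acvrl1, signals mainly through Smad1 and Smad5, whereas ALK5, encoded by Tgfbr1, signals through Smad2 and Smad3. Lrg1 is a secreted leucine-rich glycoprotein that binds endoglin, the product of Eng, and is known to turn endothelial TGF-beta signalling toward the ALK1 arm.

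The libraries differed in ways that run along the groups. Total counts were 10734376 to 12662371.5 in STZ libraries and 4387339 to 8751732.5 in control libraries. All 14 endothelial markers examined were detected, with summed levels of 26314 to 28434 CPM (counts scaled to a common library size) in STZ libraries and 16121 to 18037 CPM in control libraries. Of these, 7 were called higher (adjusted p under 0.05) and 7 were not called. The gap in the sums came mostly from Plat (mean 8303 CPM in STZ and 2630.5 CPM in control libraries) and Ehd3 (5229.95 CPM in STZ and 3001 CPM in control libraries), whereas Tek (log2 fold change 0.02) and Tie1 (-0.01) lay near 0 and Cldn5 (-0.42) and Sox17 (-0.46) had negative values. Summed levels of 11 mesangial and mural markers were 478 to 869.8 CPM in STZ libraries and 1229 to 1334 CPM in control libraries, with 4 called lower. Xist, which is expressed from the inactive X chromosome of female cells, averaged 0.687 ± 0.261 CPM in STZ libraries and 709 ± 32.4 CPM in control libraries (SD, n = 3 each), and 4 Y-linked genes went the other way. Sex is not given in the labels, so treatment and the split by sex-linked genes cannot be told apart in any result.

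The promoter windows of the risen genes that the RefSeq table holds (Lrg1, Eng and Bmpr2, build GRCm38.p6) are shown because these genes rose in STZ libraries. Each runs from 250 bases before the listed start of transcription to 50 bases after it, 5′ to 3′ on the gene's strand. Capitals mark matches on either strand to TATAAA (the TATA box), CAGAC (the SMAD box) or GGCGCC (a BMP-responsive SMAD element). The windows are Lrg1 at chr17:56121897-56122196 (minus strand), Eng at chr2:32646345-32646644 (plus strand) and Bmpr2 at chr1:59764029-59764328 (plus strand).
Lrg1: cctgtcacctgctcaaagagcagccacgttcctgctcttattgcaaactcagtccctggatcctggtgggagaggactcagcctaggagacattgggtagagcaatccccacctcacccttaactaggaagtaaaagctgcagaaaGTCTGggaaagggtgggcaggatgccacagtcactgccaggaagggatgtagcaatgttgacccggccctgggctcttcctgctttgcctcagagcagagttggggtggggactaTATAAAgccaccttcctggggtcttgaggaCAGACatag
Eng: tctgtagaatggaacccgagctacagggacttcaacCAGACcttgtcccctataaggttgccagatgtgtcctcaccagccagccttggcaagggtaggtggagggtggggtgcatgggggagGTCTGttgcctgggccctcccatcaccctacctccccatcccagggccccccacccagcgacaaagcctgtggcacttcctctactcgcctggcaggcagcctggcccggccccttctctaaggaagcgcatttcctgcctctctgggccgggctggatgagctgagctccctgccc
Bmpr2: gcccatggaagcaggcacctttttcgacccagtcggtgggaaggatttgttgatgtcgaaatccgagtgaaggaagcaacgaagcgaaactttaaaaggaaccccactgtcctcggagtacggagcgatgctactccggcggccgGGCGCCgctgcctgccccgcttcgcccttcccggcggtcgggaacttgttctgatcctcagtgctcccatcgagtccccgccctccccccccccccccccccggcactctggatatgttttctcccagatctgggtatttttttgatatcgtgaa

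The Lrg1 window held a TATAAA match at bases 12 to 17 after the listed start, and 2 CAGAC matches. The Eng window held 2 CAGAC matches and the Bmpr2 window 1 GGCGCC match. Of all 32851 windows of this length, 13.6% held TATAAA, 49.6% held CAGAC and 11.9% held GGCGCC. Windows were matched for 6 of the 9 genes, and Tgfbr1 had 2. Acvrl1, Tgfbr3 and Bambi had no entry. The Lrg1 window was the only one of these 7 with a TATAAA match. The STAT palindrome TTCNNNGAA, found in 8.30% of all windows, had 0 matches in the 7 windows. The short Ets core GGAA, found in 96.0% of all windows, had 1 to 6 matches in each of the 7. The G and C content of the first Tgfbr1 window was 74.7% and that of the Bmpr1a window 79.3%, against 54.7% for Lrg1, 63.3% for Eng, 59.3% for Bmpr2 and a median of 52.7% over all windows. These matches describe letters and not binding.

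Of the 9 genes, 5 were called higher in STZ (adjusted p under 0.05 in the edgeR quasi-likelihood test, adjusted over 12786 tested genes), 0 were called lower and 4 were not called. Over all tested genes, 5.47% were called higher, 4.32% lower and 9.78% in either direction. Since the 9 were chosen with earlier results of these data known, this contrast only describes them. The 5 were Lrg1, Bambi, Eng, Bmpr2 and Acvrl1. The median log2 fold change of the 9 was 0.35, against -0.01 over all tested genes. The 14 endothelial markers had a median of 0.36, with 7 called higher and 0 lower, so their shift and share of calls were close to those of the 9. CPM of the groups did not overlap in 6 of the 9, against 29.1% of tested genes. With a mesangial and mural score (the mean centred log2 CPM of the 11 markers) as a term in the fit, 2 of the 9 stayed called, Lrg1 and Bambi. Over all tested genes that term left 97 called higher and 65 lower, against 699 and 552 without it. The score moves with treatment, so for a call lost under it the 2 cannot be told apart.

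**Figure D1:**
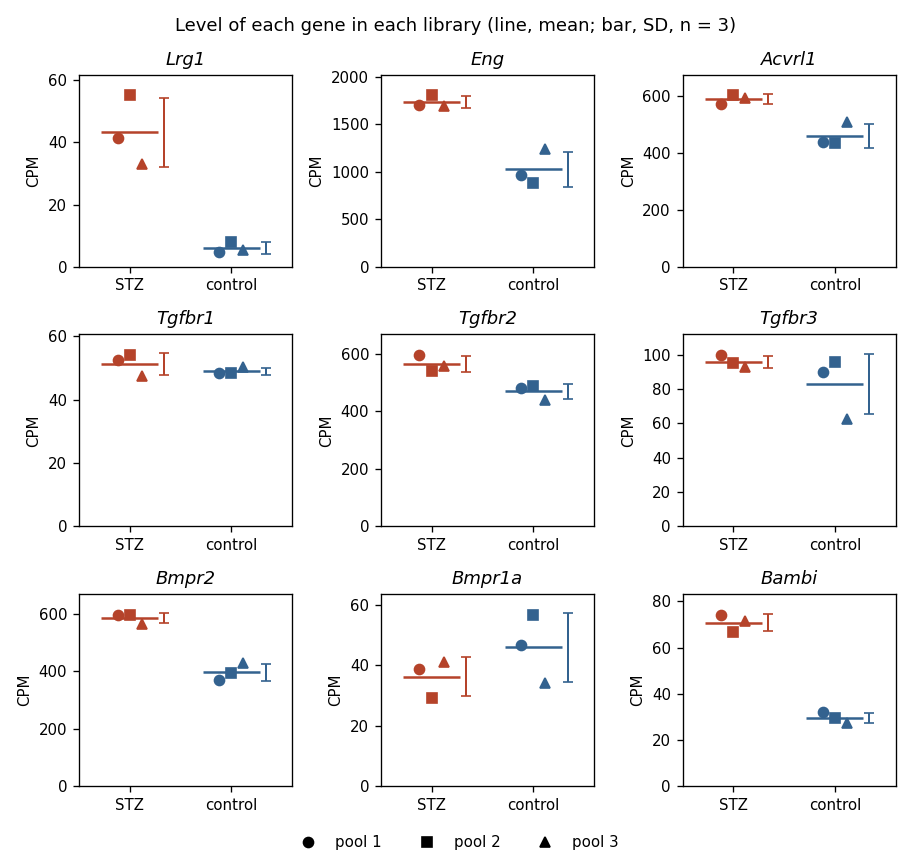
Level of each of the 9 genes in CPM (y axis, from 0, own scale per gene) in STZ libraries (red, left) and control libraries (blue, right), with markers for pools 1 to 3, a line at the mean and a bar of 1 SD. Lrg1, Eng, Acvrl1, Tgfbr2, Bmpr2 and Bambi do not overlap between groups, whereas Tgfbr1, Tgfbr3 and Bmpr1a do.

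Lrg1 (NM_029796, mm10 chromosome 17, 56119678 to 56121946, minus strand) showed the largest change of the 9. Deposited counts were 430, 638 and 410 in STZ pools 1, 2 and 3, against 42, 50 and 24 in control pools 1, 2 and 3. Scaled to library size, Lrg1 stood at 41.6, 55.2 and 33.2 CPM in STZ pools and at 4.62, 8.03 and 5.30 CPM in control pools. The lowest STZ pool was above the highest control pool, and within each group pool 2 was the highest. The log2 fold change was 2.87 ± 0.25 (SE, 95% interval 2.32 to 3.42, adjusted p = 8.52e-05), and 6 of the 12786 tested genes had a larger increase. Leaving out 1 pool at a time gave log2 fold changes of 2.66 to 3.15. With the mesangial and mural score as a term the value was 2.01 (adjusted p = 0.00969).

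Lrg1 is also made by neutrophils and hepatocytes, so markers of blood cells were read beside it. The summed level of 9 neutrophil markers was 234.5, 258 and 262 CPM in STZ pools 1, 2 and 3 and 214.5, 301 and 91.7 CPM in control pools 1, 2 and 3. The groups overlapped, 1 of the 9 markers (Retnlg) was called higher and none lower, and the most abundant markers Csf3r and S100a9 were not called (log2 fold changes 0.15 and 0.45). Genes of red cells were also measured. Their 5 members summed to 206, 191 and 125 CPM in STZ pools 1, 2 and 3 and to 21.8, 59.1 and 33.1 CPM in control pools 1, 2 and 3, with 3 called higher. The part of red cell RNA in the Lrg1 difference was not tested.

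The genes whose log2 CPM, centred on each gene's mean, ran nearest to Lrg1 over the 6 libraries were the Y-linked gene Uty (root mean square distance 0.29 on the log2 scale), the haemoglobin genes Hbb-b2 and Hbb-bt (0.32 each), Fkbp5, which encodes a glucocorticoid-induced immunophilin (0.33), and the haemoglobin gene Hba-a2 (0.44). They were taken from 10155 genes with a mean log2 CPM of at least 3. Hbb-b2 and Hbb-bt carried the same values in every library and are near-identical copies, so they count as 1 gene. Within the groups, Hba-a2 had the same order of pools as Lrg1, at 39.2, 47.6 and 24.6 CPM in STZ pools 1, 2 and 3. In control pools 1, 2 and 3 Hba-a2 stood at 5.05, 14.5 and 7.95 CPM. Hbb-bt stood at 60.4, 57.9 and 32.1 CPM in STZ pools 1, 2 and 3. In control pools 1, 2 and 3 Hbb-bt stood at 5.38, 15.1 and 7.51 CPM. Its order departed from that of Lrg1 only in STZ pools 1 and 2. A shared profile over 2 groups of 3 rests mainly on the difference between the groups.

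**Figure D2:**
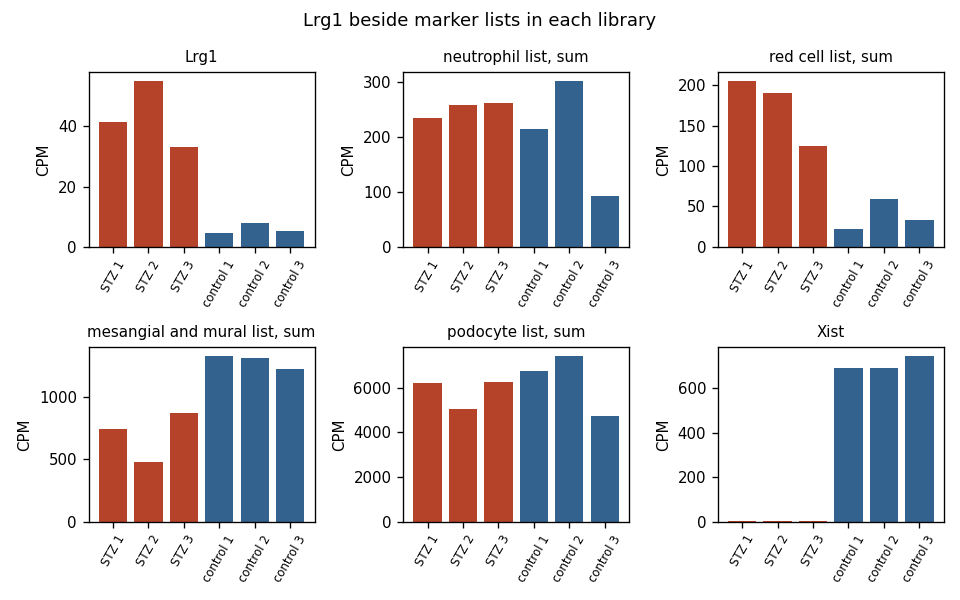
Level of Lrg1, summed levels of 4 marker lists and level of Xist (y axes, CPM, from 0) in each STZ library (red, left) and control library (blue, right). Lrg1 and the red cell sum are higher in every STZ library, the mesangial and mural sum and Xist are lower in every STZ library, and the neutrophil and podocyte sums overlap.

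Among the co-receptors, Eng rose and Tgfbr3 was not called. Eng (NM_007932, chromosome 2, 32646595 to 32682669, plus strand), an endothelial co-receptor for TGF-beta and BMP ligands and a binding partner of Lrg1, stood at 1701, 1804 and 1694 CPM in STZ pools 1, 2 and 3. In control pools 1, 2 and 3 it stood at 965, 878 and 1234 CPM. The STZ pools lay close together and above all control pools, of which pool 3 was the highest. Eng changed by a log2 fold change of 0.76 ± 0.12 (SE, 95% interval 0.49 to 1.02, adjusted p = 0.00158). With the mesangial and mural score as a term it was 0.52 and not called (adjusted p = 0.393).

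Tgfbr3 (NM_011578, chromosome 5, 107106570 to 107289595, minus strand) encodes betaglycan, which presents TGF-beta to the type II receptor. It stood at 99.8, 94.9 and 92.8 CPM in STZ pools 1, 2 and 3 and at 89.9, 95.6 and 62.7 CPM in control pools 1, 2 and 3. The groups overlapped, and control pool 3 stood below the other 5 libraries. The log2 fold change was 0.20 (95% interval -0.08 to 0.49, adjusted p = 0.381). With a podocyte score (the mean centred log2 CPM of 10 markers) as a term it was 0.44 and called (adjusted p = 0.00784). Control pool 3 had the lowest podocyte sum of the 6 libraries (4750.2 CPM against 5061 to 7440 CPM in the others). Podxl made up most of that sum (2956 CPM in control pool 3), whereas the score weights all markers equally. The 10 markers had a median log2 fold change of -0.52, with 0 called.

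Of the type I receptors, Acvrl1 was called higher, while Tgfbr1 and Bmpr1a were not called. Acvrl1 (NM_001277258, chromosome 15, 101128522 to 101145336, plus strand), the gene of ALK1, stood at 570.1, 602 and 594 CPM in STZ pools 1, 2 and 3 and at 438, 434 and 509.7 CPM in control pools 1, 2 and 3. All STZ pools were above all control pools, with the smallest gap beside control pool 3. On the log2 scale Acvrl1 differed by 0.35 ± 0.10 (SE, 95% interval 0.15 to 0.56, adjusted p = 0.0341). This call was lost when any 1 pool other than control pool 3 was left out (adjusted p of 0.0758 to 0.145) and with the mesangial and mural score (0.674).

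Tgfbr1 (NM_009370, chromosome 4, 47353305 to 47414924, plus strand), the gene of ALK5, stood at 52.5, 54.1 and 47.3 CPM in STZ pools 1, 2 and 3 and at 48.4, 48.3 and 50.4 CPM in control pools 1, 2 and 3. STZ pool 3 was the lowest of the 6 libraries and STZ pool 2 the highest. Its log2 fold change of 0.07 (95% interval -0.15 to 0.28, adjusted p = 0.738) was the closest to 0 of the 9. Bmpr1a (NM_009758, chromosome 14, 34411068 to 34502546, minus strand), the gene of the BMP receptor ALK3, was the 1 gene of the 9 with a negative value. It stood at 38.7, 29.1 and 41.2 CPM in STZ pools 1, 2 and 3 and at 46.9, 56.9 and 34.2 CPM in control pools 1, 2 and 3, so the groups overlapped. For Bmpr1a the log2 fold change was -0.35 (95% interval -0.77 to 0.07, adjusted p = 0.291), and with the podocyte score as a term it was -0.0057. The podocyte sum, in which Podxl is also an endothelial gene, was 5061 CPM in STZ pool 2 and 7440 CPM in control pool 2, the pools with the least and the most Bmpr1a. The lowest podocyte sum was that of control pool 3 (4750 CPM), where Bmpr1a stood at 34.2 CPM, above STZ pool 2. Podxl alone made up most of these sums, at 3323 CPM in STZ pool 2, 4021 CPM in control pool 2 and 2956 CPM in control pool 3. The order of the sums therefore need not be that of the other podocyte markers.

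Of the type II receptors, Bmpr2 rose and Tgfbr2 was not called. Bmpr2 (NM_007561, chromosome 1, 59764279 to 59878081, plus strand), which pairs with ALK1 or ALK3 in BMP signalling, stood at 598, 596 and 565 CPM in STZ pools 1, 2 and 3 and at 368, 394 and 428 CPM in control pools 1, 2 and 3. The groups were apart by more than the range within either. Bmpr2 had a log2 fold change of 0.56 ± 0.09 (SE, 95% interval 0.36 to 0.77, adjusted p = 0.00182), and with the mesangial and mural score it was 0.45 and not called (adjusted p = 0.362). Tgfbr2 (NM_009371, chromosome 9, 116087695 to 116175363, minus strand), the TGF-beta binding type II receptor gene, stood at 596, 542 and 558 CPM in STZ pools 1, 2 and 3 and at 480.4, 489 and 438 CPM in control pools 1, 2 and 3. The groups did not overlap, but its log2 fold change of 0.27 (95% interval 0.07 to 0.47) did not pass (adjusted p = 0.0899). It was called with the podocyte score as a term (0.34, adjusted p = 0.0148).

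Bambi (NM_026505, chromosome 18, 3507957 to 3516404, plus strand) encodes a membrane protein that resembles a type I receptor without the kinase domain and blocks TGF-beta and BMP signalling. It stood at 74.3, 66.8 and 71.5 CPM in STZ pools 1, 2 and 3 and at 31.9, 29.4 and 27.4 CPM in control pools 1, 2 and 3. Pools of a group lay close together, and every STZ pool had more than every control pool. Its log2 fold change was 1.25 ± 0.10 (SE, 95% interval 1.03 to 1.48, adjusted p = 8.57e-06), with 59 tested genes showing a larger increase. Leaving out 1 pool at a time gave 1.21 to 1.32, and the value with the mesangial and mural score was 1.44 (adjusted p = 0.00406). The nearest profiles to Bambi were Itprip, Lpin3, Gpr56, Acer2 and Bcl2l1, at distances of 0.07 to 0.09 on the log2 scale.

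**Figure D3:**
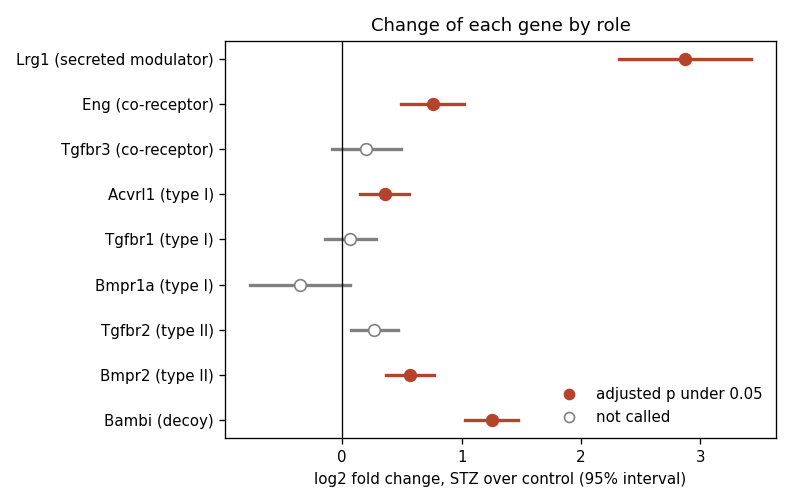
Log2 fold change of STZ over control (x axis) of the 9 genes, ordered by role (y axis), with 95% intervals. Filled red points passed an adjusted p of 0.05, and open grey points did not. The Lrg1 interval (2.32 to 3.42) lies above those of all 8 receptors.

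Levels between genes were compared per length, as CPM per kilobase of the 1 transcript length listed for each gene. Acvrl1 has 5 listed transcripts, Eng 3 and Tgfbr2 2, and the others 1. In the GENCODE annotation, exons of Eng, Acvrl1 and Bmpr1a overlap those of Fpgs, Gm16031 and Gm17110 on the opposite strand, and without a stated strand setting their reads cannot be told apart. An exon of Tgfbr3 overlaps one of Gm43422 on the same strand, so no strand setting would separate that pair. In STZ libraries the order of mean levels was Eng (504.7), Acvrl1 (165), Tgfbr2 (118), Bmpr2 (52.9), Lrg1 (32.0), Tgfbr3 (15.8), Bambi (14.1), Tgfbr1 (9.06) and Bmpr1a (6.62). The ranges of neighbours over the 3 STZ libraries did not overlap. In control libraries Eng (299), Acvrl1 (129), Tgfbr2 (98.0), Bmpr2 (35.8) and Tgfbr3 (13.7) came first, then Tgfbr1 (8.65), Bmpr1a (8.39), Bambi (5.86) and Lrg1 (4.42). There the ranges of Tgfbr1 and Bmpr1a, of Bmpr1a and Bambi, and of Bambi and Lrg1 overlapped. Lrg1 was thus the fifth of the 9 by mean level in STZ libraries and the last in control libraries.

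**Figure D4:**
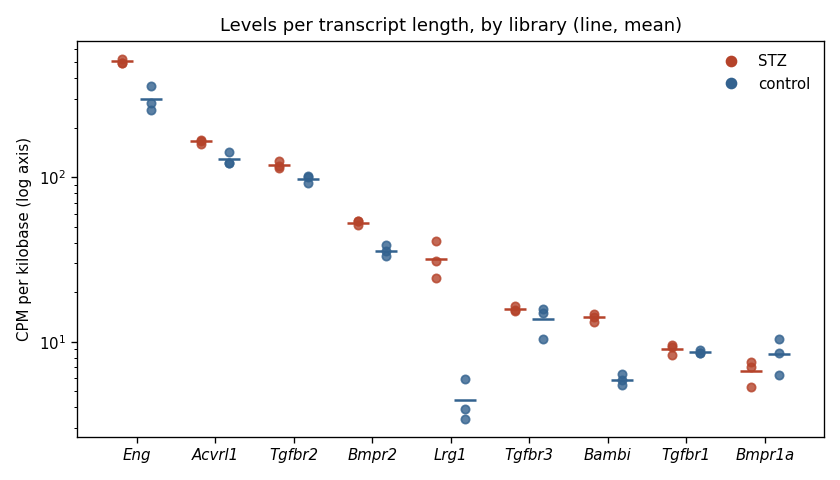
CPM per kilobase of listed transcript (y axis, log scale) of each gene in the 3 STZ libraries (red, left of each pair) and the 3 control libraries (blue, right), with a line at the mean. Eng is the highest in both groups, and Lrg1 averages 32.0 in STZ and 4.42 in control libraries.

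Per length, Acvrl1 made up most of the 3 type I receptor transcripts followed here, at 91.3 ± 0.590% in STZ and 88.2 ± 1.98% in control libraries (SD, n = 3 each). Tgfbr1 made up 5.02 ± 0.374% in STZ and 5.94 ± 0.265% in control libraries. Eng outnumbered Tgfbr3 in the same way, at 97.0 ± 0.164% of the pair in STZ and 95.5 ± 1.56% in control libraries. Bmpr2 was 30.9 ± 1.08% of the type II pair in STZ and 26.8 ± 2.54% in control libraries.

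Within a library, the log2 ratio of 1 gene to another does not depend on scaling. The ALK1 to ALK5 ratio (Acvrl1 over Tgfbr1) was 3.44, 3.47 and 3.65 in STZ pools 1, 2 and 3 and 3.18, 3.16 and 3.34 in control pools 1, 2 and 3. Every STZ pool was above every control pool, by 0.29 on average. Bmpr2 over Tgfbr2 differed by 0.30, Bambi over Bmpr1a by 1.59 and Lrg1 over Eng by 2.08, also without overlap. Each of these 4 had an exact two-sided permutation p of 0.1, the smallest that 3 against 3 allows (0.125 adjusted over the 5 ratios). Eng over Tgfbr3 differed by 0.54 with overlapping groups (exact permutation p = 0.4), since control pool 3 (4.30) exceeded the 3 STZ pools (4.09 to 4.25). Leaving out 1 pool at a time gave differences of 0.32 to 0.87 for Eng over Tgfbr3, the highest without control pool 3.

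The other genes of the pathway were read from 4 lists. Of 65 tested genes, 12 were called higher, 5 lower and 48 were not called, against 5.47% higher and 4.32% lower over all tested genes. The median log2 fold change of the 65 was 0.08. With the mesangial and mural score as a term, 1 was called higher and 2 lower, and without control pool 1, 6 were called higher. Without control pool 3, 8 were called lower.

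Several genes that TGF-beta or BMP signalling is known to induce rose. Of 17 tested target genes, 7 were called higher, 0 lower and 10 were not called, with a median of 0.42. Without control pool 1, 4 of the 17 were called higher. Over all tested genes, 5.47% were called higher. Of the 14 endothelial markers, 7 were called higher and 0 lower, with a median of 0.36, close to the shift of the target genes. Klf10, a TGF-beta early response transcription factor, rose by 0.97 ± 0.11 and Id2, an inhibitor of differentiation induced by BMP, by 0.68 ± 0.10 (SE). Also called higher, and named after their values were seen, were the ALK1 and BMP responsive genes Hey1 (0.81), Id1 (0.80), Atoh8 (0.70) and Id3 (0.55). Hey2, in the same list, was lower in every STZ pool but not called (log2 fold change -0.59, adjusted p = 0.113). With the mesangial and mural score as a term 1 of the 17 was called higher. Klf10 (0.93, adjusted p = 0.0633), Id2 (0.40, 0.419), Hey1 (0.42, 0.545) and Atoh8 (0.92, 0.234) were then not called. The Klf10 value stayed close to that without the score and the Atoh8 value was larger, whereas those of Id2 and Hey1 were smaller. The score moves with treatment, and with it 97 of all tested genes were called higher. With that score Id1 (-0.0013) and Id3 (-0.018) had the opposite sign, without control pool 1 the calls of Id1, Id3 and Atoh8 were lost (adjusted p = 0.0949, 0.0839 and 0.0542), and that of Id1 was also lost without STZ pool 1 or control pool 2 (0.0767 and 0.101). The Atoh8 call was also lost without STZ pool 1 (0.0800). Ctgf, another SMAD target, had a value of -0.55 and was not called (adjusted p = 0.210).

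Of 16 tested SMADs and regulators, 2 were called higher and 1 lower, with a median of 0.16. Without control pool 3, 4 were called higher, and without STZ pool 1 or control pool 1, 1 was. The count called higher was 4 with limma-voom, 5 with limma-voom and sample weights and 4 in a non-robust edgeR fit. The podocyte score gave 2 called lower. In this list 0 genes were called with the mesangial and mural score as a term, in either direction, and Skil (0.69), Smad3 (-0.81) and Fkbp1a (0.37) had adjusted p of 0.223, 0.0838 and 0.484. Skil, a repressor of SMADs that is itself induced by TGF-beta, rose by 0.85 ± 0.12, with 139, 136 and 127 CPM in STZ pools 1, 2 and 3 and 75.7, 60.6 and 87.7 CPM in control pools 1, 2 and 3. Fkbp1a, whose product binds the inactive type I receptor, rose by 0.43 ± 0.09 (adjusted p = 0.00999), but not past the threshold without STZ pool 1 or control pool 1 (0.0662 and 0.0590). Smad3, which with Smad2 carries the ALK5 signal, fell by 0.63 on the log2 scale. Smad3 stood at 65.5, 70.6 and 66.3 CPM in STZ pools 1, 2 and 3. In control pools 1, 2 and 3 it stood at 103, 95.4 and 115 CPM. Smad2, named after its value was seen, was not called and its groups overlapped (log2 fold change -0.16, adjusted p = 0.373). Smad1 and Smad5, which carry the ALK1 signal and were also named after their values were seen, went opposite ways. Smad1 was higher in every STZ pool (0.26, adjusted p = 0.0886) and Smad5 lower (-0.22, 0.187), and neither was called. Smad6, the inhibitor of BMP signalling (named after its value was seen), was higher in every STZ pool at 636, 1100.6 and 551 CPM, against 213, 259 and 376 CPM in control pools, but it varied widely and was not called (log2 fold change 1.44 ± 0.37, adjusted p = 0.0924).

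Ligands and binders went both ways. Of 19 tested, 3 were called higher and 4 lower, with a median of -0.03. Without control pool 1 or control pool 2, 1 was called higher. Bmper, a secreted BMP binder of endothelial cells, rose by 0.95 ± 0.14, with 25.3, 23.6 and 22.2 CPM in STZ pools 1, 2 and 3 and 12.4, 12.0 and 12.2 CPM in control pools 1, 2 and 3. Bmp6, a BMP ligand made by endothelial cells of several organs, rose by 0.75 ± 0.16, and its call needed both control pool 1 and control pool 2 (without them, adjusted p = 0.0688 and 0.0924). Its value was 0.038 with the mesangial and mural score as a term (adjusted p = 0.963). Fstl1, a secreted follistatin-like glycoprotein, rose by 0.32 ± 0.09, and only STZ pool 2 could be left out without losing the call (adjusted p of 0.0501 to 0.170). The ligand gene Tgfb2 fell by 1.52 on the log2 scale, to 37.5, 40.9 and 30.8 CPM in STZ pools 1, 2 and 3, against 77.1, 112 and 127 CPM in control pools 1, 2 and 3. Ltbp3, which holds latent TGF-beta in the matrix, fell by 0.49 and the ligand gene Bmp2 by 0.69. With the mesangial and mural score as a term 0 ligands and binders were called higher and 2 lower, Tgfb2 among them (-2.09), while Ltbp3 (-0.66, adjusted p = 0.147), Bmp2 (-0.21, 0.832) and Bmper (0.91, 0.190) were not called. The fourth gene called lower, Chrd (named after its value was seen), encodes the BMP antagonist chordin, and its value of -0.74 lost its call whichever pool was left out (adjusted p of 0.0577 to 0.117). Tgfb1, the most studied ligand, averaged 143 ± 37.3 CPM in STZ and 156 ± 15.2 CPM in control libraries (SD, n = 3 each) and was not called (adjusted p = 0.736).

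None of the 13 other tested receptors and co-receptors was called by the edgeR test, and their median was -0.15. The most abundant was Nrp1, a co-receptor of semaphorins and VEGF that also binds TGF-beta, at 2909.8 to 3170.3 CPM in STZ and 2393 to 2812 CPM in control libraries (log2 fold change 0.21, adjusted p = 0.226). The type I receptor gene Acvr1, named after its value was seen, stood at 32.4 ± 1.89 CPM in STZ and 32.8 ± 2.63 CPM in control libraries (SD, n = 3 each). DESeq2 and limma-voom also called 0 of the 13, and 3 had an unadjusted p under 0.05 in edgeR. Without control pool 3, edgeR called 3 of the 13 lower.

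**Figure D5:**
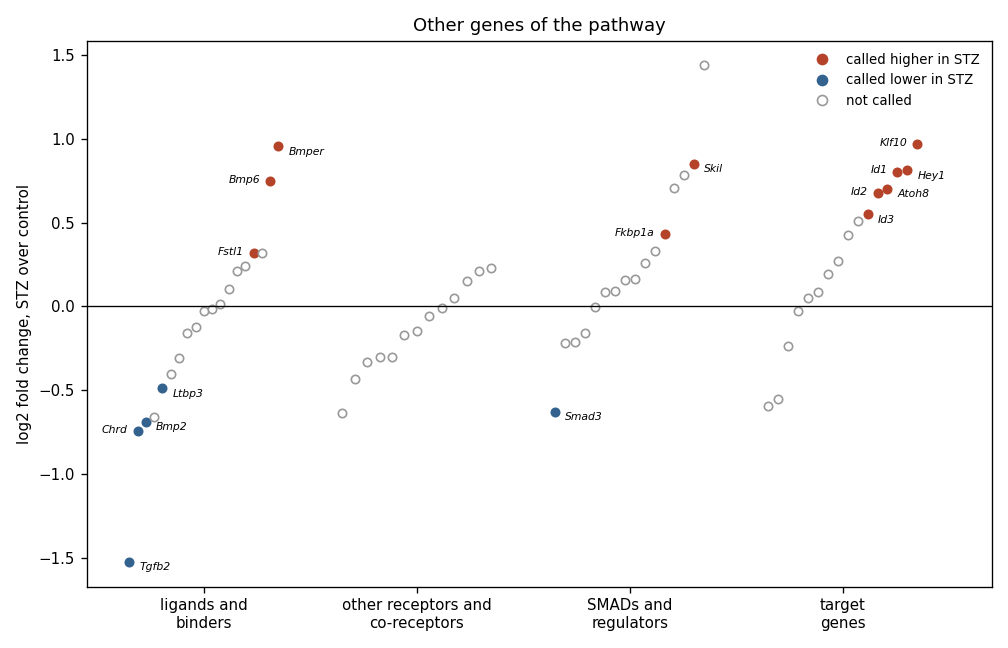
Log2 fold change of STZ over control (y axis) of 64 of the 65 other tested pathway genes in 4 lists (x axis), sorted within each list. Red points were called higher, blue points lower, and open points were not called. The 6 called target genes plotted are all higher, and the 13 other receptors hold no called gene.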

How the data were processed

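RNA of glomerular endothelial cells was sequenced in 6 libraries, grouped by the labels' titles into 3 STZ and 3 control libraries. The deposited files hold 1 estimated count per gene and library, unscaled and in multiples of 0.5, and values ending in 0.5 occur in 2251 of 12911 genes, of which 1 (Tgfbr2) is a gene reported in full here. The submitters' processing notes name mm10 and limma. The aligner, the counter, the strand setting and the way in which several transcripts of a gene were summarised are not stated in any source used here. The 34 blank cells were read as 0, and 1 was added to listed starts.

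Rounded counts entered a robust quasi-likelihood fit of edgeR 4.0.16 (R 4.3.3) after filterByExpr and TMM scaling. Its two-sided F test gave p-values that were adjusted by Benjamini-Hochberg over 12786 genes, with a threshold of 0.05. SE is the log2 fold change divided by the root of F. CPM use TMM-scaled library sizes. Totals of 4387339 to 12662371.5 counts set the precision. The genes and lists were chosen with earlier results of these data known. Named genes were the 9, up to 3 called per direction in each pathway list, the 5 nearest profiles to Lrg1 and to Bambi, and the 2 most abundant markers of each list, of which only some are printed. Of the called target genes, 1 is included in the counts and is not reported here by name. Alternatives used DESeq2 1.42.0 and limma 3.58.1, other scalings and filters, thinning, marker scores, a replicate block and leaving out each library.

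Tested on data simulated for STZ against control with 12764 genes tested, the fit recovered 65.7% of 67 genes changed 1.5-fold, 89.6% of 67 changed 2-fold and 100% of 66 changed 4-fold. Unchanged genes made up 12.4% of the calls. Libraries of a group differed beyond counting noise, with chi-square values of 3.95 to 11.8 per gene, so all were kept. Same-numbered libraries did not deviate together (correlations over genes of 0.12, -0.13 and -0.16 for numbers 1, 2 and 3), so the numbers were not used as pairs.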

Additional observations from a re-analysis of the deposited data

How the results depend on the processing

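The Lrg1 and Bambi calls and directions held under all 18 alternatives. The count of genes called higher among the 9 was 5 under 9 of the other 12 settings, 4 with the replicate block, 7 with the podocyte score and 2 with the mesangial and mural score, and 4 to 5 when 1 library was left out, with 0 called lower throughout. Under the replicate block Acvrl1 lost its call (0.36, adjusted p = 0.0734), as did Fstl1 (0.0790), Chrd (0.0653) and Id1 (0.0611) among the called pathway genes. The mesangial and mural score moves with treatment, and with it the counts over all tested genes were 97 higher and 65 lower, and over the other pathway genes 1 higher and 2 lower. It also reversed Tgfbr1 (-0.14), Bmpr1a (0.38), Id1 (-0.0013) and Id3 (-0.018), none of them called under it. The podocyte score gave 1098 genes higher and 878 lower. The cause was not tested in either case. With 1 library left out, 426 to 695 genes were called higher and 236 to 596 lower over all tested genes, and 6 to 14 higher and 4 to 8 lower among the other pathway genes. Differences of log2 ratios ran from 0.23 to 0.35 for Acvrl1 over Tgfbr1, 0.32 to 0.87 for Eng over Tgfbr3, 0.23 to 0.40 for Bmpr2 over Tgfbr2, 1.42 to 1.73 for Bambi over Bmpr1a and 1.87 to 2.41 for Lrg1 over Eng. Thinned to the shallowest library, the 5 calls were kept. Lrg1 counts of 24 to 50 in control libraries limit the precision of its fold change. All groups hold 3 libraries, so no sample was tested as an outlier.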
